A study of Mus musculus with 12 samples.

Results

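The transcripts of 9 NLRP genes that mouse oocytes express, Nlrp2, Nlrp14, Nlrp9a, Nlrp9b, Nlrp9c, Nlrp4a, Nlrp4b, Nlrp4c and Nlrp4e, were examined in oocytes with and without the RNA demethylase ALKBH5. They were picked by symbol from a table of 56691 genes, and each symbol matched 1 gene. Oocytes of C57BL/6 WT females and of Alkbh5-/- females (KO), in which exon 1 with the start codon had been removed from the gene in every tissue, were sequenced at 3 points of meiotic maturation with 2 libraries in each of 6 groups. Females of 3 weeks were primed with the gonadotropin PMSG, and their germinal vesicle (GV) oocytes were taken at once or cultured for 4 h (GVBD, germinal vesicle breakdown) or 16 h (MII, metaphase of the second division). Each library was a small pool of oocytes freed of cumulus cells and zona, and the groups are named by time in culture. KO oocytes often stop earlier, so the KO GVBD and KO MII pools may hold oocytes of earlier stages.

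NLRP proteins carry an N-terminal effector domain, usually a pyrin domain, a nucleotide-binding NACHT domain and leucine-rich repeats. Some members sense microbial or danger signals in immune cells and assemble inflammasomes, the platforms that activate caspase 1. Another branch is transcribed mainly in germ cells and is loaded into the egg, and its best known members, NLRP5 (MATER) and NLRP4F, are parts of the subcortical maternal complex, a protein assembly under the oocyte membrane that early embryos need. Mouse Nlrp4 and Nlrp9 genes exist in several copies made by gene duplication, whereas Nlrp2 and Nlrp14 are single genes.

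Total counts were 28.56 to 40.25 M per library (M, 1e6 counts). An ERCC mix, synthetic RNA added in equal amount to each tube, took 221927 to 838409 counts, and the endogenous counts per ERCC count were lowest in replicate 2 of WT MII (47.0) and of KO MII (54.67), against 73.27 and 87.87 in the first replicates. The ratio was lower in replicate 2 than in replicate 1 in all 6 groups. As the study normalized to ERCC, counts were scaled to the ERCC sum of each library (scaled counts). The MII values of each genotype thus rest on 2 libraries that differ in this ratio. Alkbh5 had 5355 to 10181 counts in WT and 54 to 143 in KO libraries. Of 10 oocyte markers all were detected in every group, with summed CPM (counts per 1e6 endogenous counts) of 5234 to 9013, while the 10 granulosa cell markers summed to 37.37 to 84.96 CPM and the 8 leukocyte markers to 11.95 to 59.64 CPM. In bulk samples, fewer cells of a type and less RNA per cell cannot be told apart.

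All 9 genes lie on mouse chromosome 7 (GRCm38). Nlrp9c (chr7:26322473-26403700, minus strand), Nlrp4a (chr7:26435113-26476142, plus strand) and Nlrp9a (chr7:26535023-26575615, plus strand) follow each other at gaps of 31.4 kb and 58.9 kb with no protein-coding gene between. Nlrp2 (chr7:5298547-5351035), Nlrp4c (chr7:6045161-6105150), Nlrp4b (chr7:10687789-10730168), Nlrp9b (chr7:19991465-20073306) and Nlrp4e (chr7:23301192-23362277) are spread over the same part of the chromosome, and Nlrp14 (chr7:107166990-107198102) stands 80591.4 kb apart.

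Since the authors kept uniquely mapped reads, a stretch that is identical in another gene can lose counts. The closest pair, Nlrp4c and Nlrp4e, had 93.2% identical bases over the aligned transcripts, followed by Nlrp9a and Nlrp9c with 88.0% and Nlrp4a and Nlrp4e with 86.1%. The longest identical runs are shown, since only a read or part of a read that lies wholly within such a run could not be assigned between the genes. The first is the 120-base run of Nlrp4c exon 2 (chr7:6060715-6060834, plus strand) and Nlrp4e exon 1 (chr7:23301402-23301521, plus strand), the second the 129-base run of exon 3 of Nlrp9a (chr7:26557547-26557675, plus strand) and of Nlrp9b (chr7:20023428-20023556, plus strand), both within the coding part.
Nlrp4c and Nlrp4e: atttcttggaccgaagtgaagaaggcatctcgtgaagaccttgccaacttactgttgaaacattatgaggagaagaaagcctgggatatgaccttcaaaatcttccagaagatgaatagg
Nlrp9a and Nlrp9b: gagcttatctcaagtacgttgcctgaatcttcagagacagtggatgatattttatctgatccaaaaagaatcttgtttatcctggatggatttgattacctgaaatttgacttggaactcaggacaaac

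Both runs are shorter than a read of 150 bases, and such runs were a small part of each transcript. In windows of 150 bases, 8 of the 9 longest transcripts shared no window with the annotated transcripts of any other gene. Nlrp4e shared 110 of 3233 windows (3.4%), all with the predicted genes Gm8486, Gm4541, Gm16443, Gm8685 and Gm8728, which together held 1479 counts over the 12 libraries, 3.36% of the Nlrp4e counts. In windows of 75 bases the shared part of Nlrp4e rose to 20.2%, that of Nlrp4c was 3.42% and that of the other members at most 3.09%, so the level of Nlrp4e is the most open to loss. Copies outside annotated transcripts were not searched.

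The RefSeq promoter set (GRCm38.p6) held 8 of the 9 genes, and Nlrp14 was not among them. Promoters of near relatives shared short or long runs before the start site. The 120 bases upstream of the start are given for the Nlrp4 genes, with the longest run that Nlrp4a, Nlrp4b and Nlrp4c have in common upstream of the start in capitals, and the region around the shared run for the Nlrp9 pair.
Nlrp4a, chr7:26435494-26435613, plus strand: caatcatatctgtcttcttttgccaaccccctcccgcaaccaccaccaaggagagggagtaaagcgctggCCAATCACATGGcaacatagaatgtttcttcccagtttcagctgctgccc
Nlrp4b, chr7:10687673-10687792, plus strand: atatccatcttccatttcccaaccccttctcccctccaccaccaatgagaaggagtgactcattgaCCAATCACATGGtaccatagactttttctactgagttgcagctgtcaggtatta
Nlrp4c, chr7:6045041-6045160, plus strand: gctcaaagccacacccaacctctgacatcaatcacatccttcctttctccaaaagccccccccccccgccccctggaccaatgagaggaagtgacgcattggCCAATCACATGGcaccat
Nlrp9a, chr7:26534890-26535022, plus strand: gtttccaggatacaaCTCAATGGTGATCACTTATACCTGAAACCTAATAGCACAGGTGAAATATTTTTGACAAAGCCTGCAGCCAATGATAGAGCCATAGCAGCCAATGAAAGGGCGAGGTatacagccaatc
Nlrp9c, chr7:26403742-26403877, minus strand: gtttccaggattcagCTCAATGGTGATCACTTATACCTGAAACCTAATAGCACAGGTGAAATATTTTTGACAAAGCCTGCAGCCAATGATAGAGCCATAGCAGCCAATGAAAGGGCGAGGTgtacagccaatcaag

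The 12-base run CCAATCACATGG began 50 bases before the start of Nlrp4a, 54 before that of Nlrp4b and 18 before that of Nlrp4c. For Nlrp4a and Nlrp4b, which each had a further start site in the set, a start with the run before it was used. The other Nlrp4a window (chr7:26434863-26435162) does not hold the run. On either strand the run was present in 7 of 32851 promoters (0.0213%), which include those of these genes. Nlrp4e held no copy of it in its promoter window. Nlrp9a and Nlrp9c had 106 bases in common, which no other promoter held, and which include the E-box letters CAGGTG, found in 20.2% of all promoters when both strands are read. The Nlrp9b promoter window (chr7:20007773-20008072) shared no run of 12 bases with either relative. It lies downstream of the gene start given above (chr7:19991465), and the bases before that start were not searched. The runs were picked after the sequences were seen and are a description only.

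The last 100 bases of the longest transcript held a polyadenylation signal (AATAAA or ATTAAA on the transcript strand) in 7 of 9 members, against 74.9% of 21852 genes, and neither form in Nlrp14 or Nlrp4a. In Nlrp9a, Nlrp9b and Nlrp9c the site was nearly the same, with AATAAA beginning 25 bases before the transcript end. The letters TTTTAT, a form of the cytoplasmic polyadenylation element through which stored oocyte mRNAs are readenylated, were in the same window of Nlrp4a and Nlrp4c only, against 12.9% of genes. In Nlrp4c they overlapped the letters of a poly(A) signal. The capitals mark the signal in the Nlrp9 sites and TTTTAT in the Nlrp4 sites.
Nlrp9a: acaagcacattcAATAAAcactaagcatgt
Nlrp9b: acaagcacatttAATAAAcactaagcgtgt
Nlrp9c: acaagcacattaAATAAAcactaagcatgt
Nlrp4a: cttttcatccaaTTTTATgtcatctctcac
Nlrp4c: ctgttttgtgttTTTTATtaaataataaat

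Levels were first compared between genes as CPM per kb of merged exons. In WT GV oocytes Nlrp14 was by far the most abundant member, at 658.4 CPM per kb (647.2 and 669.7 in the 2 libraries), rank 148 of 25163 detected genes. Nlrp4a followed at 217.3, Nlrp9c at 184.6, Nlrp9b at 122.7, Nlrp2 at 86.16, Nlrp9a at 76.92 and Nlrp4b at 69.74, at percentiles between 95.89 and 98.35 of detected genes. The remaining pair was lower, with Nlrp4e at 21.05 and Nlrp4c at 4.456 CPM per kb (rank 5949). No neighbours in this order overlapped in WT GV. Of the genes with a shared promoter run, Nlrp4a stood far above Nlrp4c, and Nlrp9c above Nlrp9a. A link between promoter sequence and level was not tested.

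The order was partly kept in the other groups. Nlrp14, Nlrp4e and Nlrp4c held the first, eighth and last places in all 6 groups. The libraries of Nlrp4a and Nlrp9c overlapped in WT GVBD and KO MII, and neighbours among Nlrp2, Nlrp9a and Nlrp4b overlapped in WT GVBD, WT MII and KO MII, where Nlrp9a also overlapped Nlrp9b in KO MII. With the length of the longest transcript in place of merged exons, 4 of 9 genes kept their place in WT GV, because Nlrp9c (340.8) then passed Nlrp4a (247.0) and Nlrp4b (94.18) passed Nlrp2 and Nlrp9a. The members together took 0.591% ± 0.016 (SD, n = 2) of endogenous counts in WT GV, 0.691% ± 0.085 in WT GVBD, 0.768% ± 0.045 in WT MII, 0.588% ± 0.00028 in KO GV, 0.597% ± 0.019 in KO GVBD and 0.792% ± 0.037 in KO MII.

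**Figure D1:**
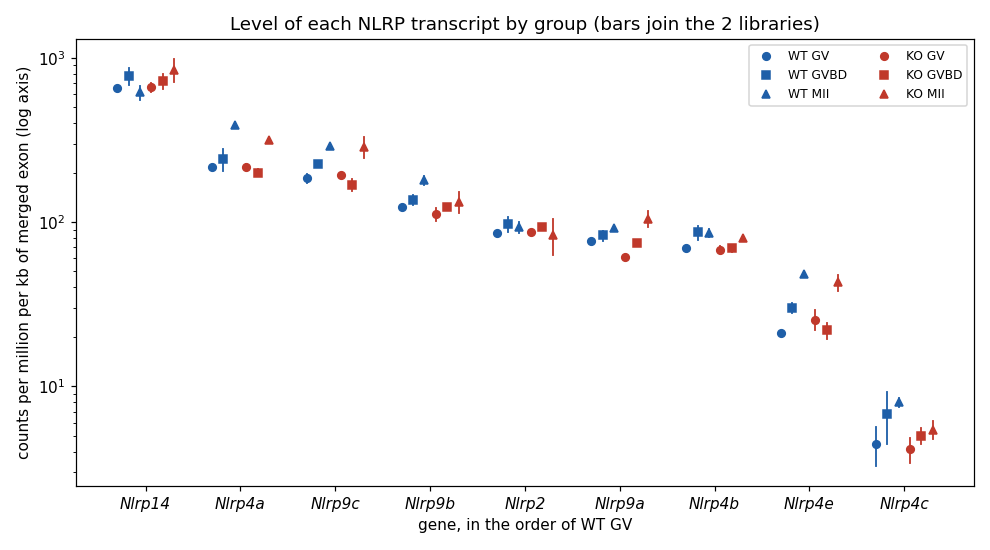
Level of each NLRP transcript in CPM per kb of merged exons (log axis) by group, with genes in the order of WT GV, a symbol for the mean and a bar joining the 2 libraries. Nlrp14 lies highest and Nlrp4c lowest in every group.

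Nlrp14, a germline NLRP needed in the egg for early embryo development, was the most abundant. Its scaled counts were 97029 and 94663 (GV), 109200 and 93834 (GVBD) and 70876 and 37242 (MII) in WT oocytes, and 113800 and 111480 (GV), 137410 and 90949 (GVBD) and 123280 and 55355 (MII) in KO oocytes. Both WT MII libraries lay below every other WT library, and both KO GV libraries above both WT GV libraries, while the 2 KO MII libraries differed more than 2-fold and overlapped both KO GVBD and WT MII. Nlrp2, a maternal-effect gene whose protein joins NLRP5 and NLRP4F beneath the oocyte membrane, had 12453 and 12425 (GV), 13819 and 11523 (GVBD) and 10409 and 5718 (MII) in WT oocytes, and 16169 and 13290 (GV), 16170 and 12839 (GVBD) and 13060 and 4865 (MII) in KO oocytes. The lowest library in each genotype was replicate 2 of MII, and the KO MII range included the WT MII range.

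The Nlrp9 genes are near relatives in sequence, of which NLRP9B is also known as a sensor of rotavirus RNA in the gut. Nlrp9a had 11198 and 10857 scaled counts (GV), 14038 and 8161 (GVBD) and 9235 and 6206 (MII) in WT oocytes, and 10611 and 9830 (GV), 12487 and 10403 (GVBD) and 11534 and 8977 (MII) in KO oocytes. Nlrp9b had 19133 and 18492 (GV), 21502 and 16582 (GVBD) and 21073 and 11835 (MII) in WT oocytes, and 23443 and 17068 (GV), 22080 and 18559 (GVBD) and 20075 and 9302 (MII) in KO oocytes. Nlrp9a was below WT GV in both WT MII libraries, whereas the MII libraries of Nlrp9b overlapped those of GV in both genotypes. For Nlrp9c the values were 43700 and 46392 (GV), 61964 and 39763 (GVBD) and 49004 and 33637 (MII) in WT oocytes, and 60196 and 50206 (GV), 45029 and 43167 (GVBD) and 52022 and 43235 (MII) in KO oocytes. Its KO GVBD libraries were below both KO GV libraries.

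The Nlrp4 genes other than Nlrp4f have no single established role, though Nlrp4e has been linked to preimplantation development. Nlrp4a had 45135 and 41532 scaled counts (GV), 44775 and 41185 (GVBD) and 58556 and 34355 (MII) in WT oocytes, and 56457 and 45641 (GV), 44937 and 40455 (GVBD) and 52369 and 35460 (MII) in KO oocytes. Nlrp4b had 13239 and 12555 (GV), 15969 and 12938 (GVBD) and 12039 and 6951 (MII) in WT oocytes, and 16557 and 13037 (GV), 15850 and 11791 (GVBD) and 12822 and 7908 (MII) in KO oocytes. Nlrp4a showed no separation of MII from GV, and Nlrp4b was lower in both MII libraries than in both GV libraries of either genotype. Nlrp4c, the least abundant, had 559 and 901 (GV), 809 and 1118 (GVBD) and 1008 and 573 (MII) in WT oocytes, and 1001 and 615 (GV), 1089 and 713 (GVBD) and 871 and 424 (MII) in KO oocytes. Nlrp4e had 3131 and 2768 (GV), 4342 and 3318 (GVBD) and 4631 and 3222 (MII) in WT oocytes, and 5083 and 3344 (GV), 3221 and 3293 (GVBD) and 4593 and 3591 (MII) in KO oocytes. For Nlrp4e the WT GV libraries were below all other libraries, while Nlrp4c overlapped between all groups. Separations of this kind between scaled counts rest on 2 libraries a group, and how often other genes show them was not counted.

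**Figure D2:**
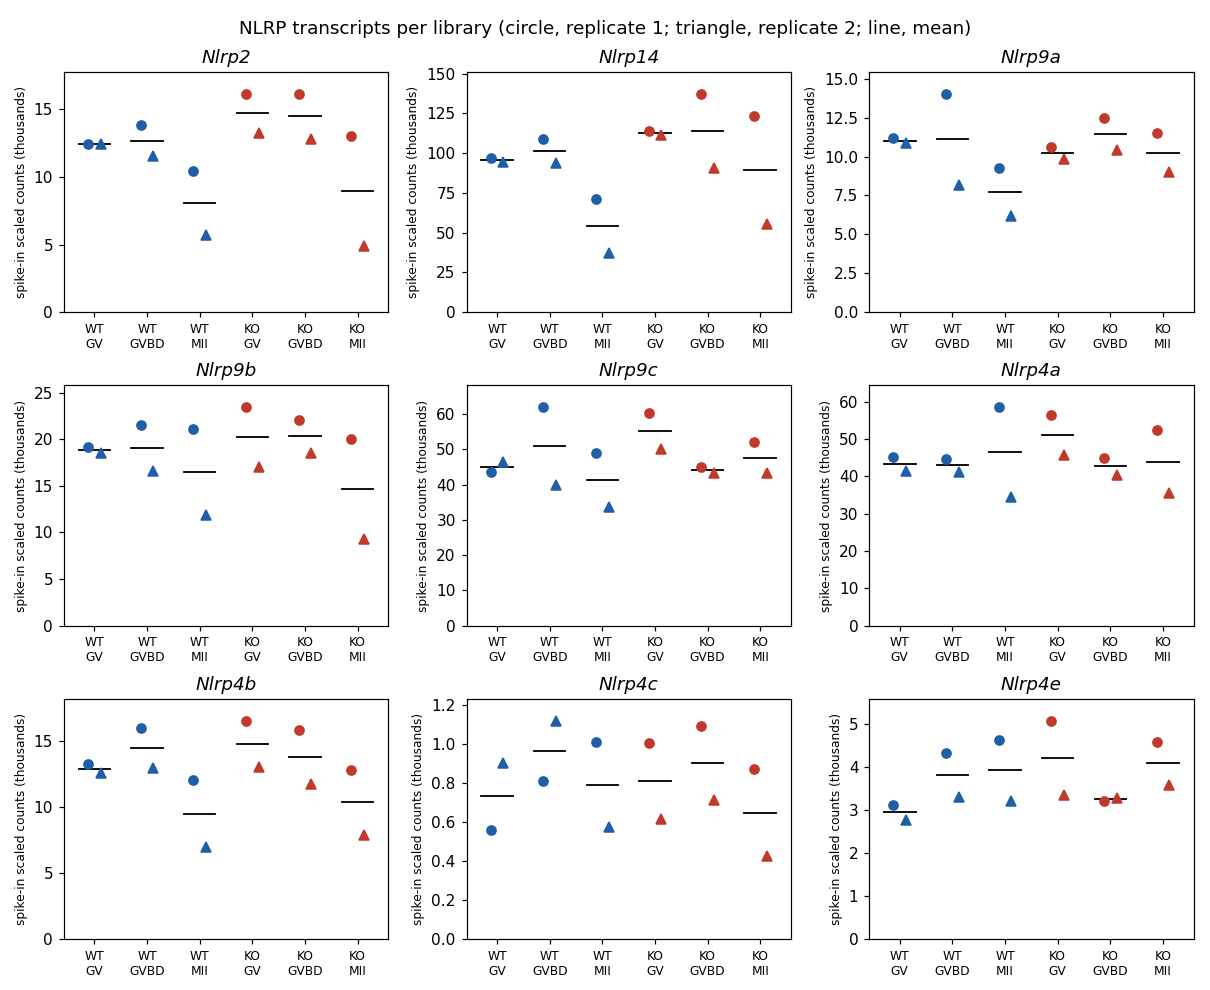
Scaled counts (in units of 1e3, linear axis from 0) of each NLRP gene in the 12 libraries, with a circle for replicate 1, a triangle for replicate 2, a line for the mean, WT in blue and KO in red. The second MII library lies below the first in every gene of both genotypes, as for Nlrp14 with 70876 and 37242 in WT.

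Whether loss of ALKBH5 changed these transcripts was first asked in KO against WT oocytes of the same time. No member passed (adjusted p under 0.05 and at least a 2-fold change, edgeR quasi-likelihood test, Benjamini-Hochberg over all tested genes), and none had an unadjusted p under 0.05 at any of the 3 times. DESeq2 also called 0 of 9 at each time. At GV 8 of 9 members had a positive log2 fold change, from -0.11 for Nlrp9a to 0.51 ± 0.24 (SE) for Nlrp4e (95% interval -0.08 to 1.11, adjusted p = 0.335). Their median was 0.233, against 0.358 over all 19452 tested genes, of which 0.0977% were called. Set against the shift of all genes, only Nlrp4e was above the median gene at GV. After TMM scaling, which sets the bulk of genes equal and so compares shares of a library, 1 of 9 was positive and the median was -0.12.

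At GVBD the member median was -0.01 against 0.231 over all 19462 genes, of which 2.54% were called, and no member was above the median gene. Values ran from -0.23 ± 0.50 for Nlrp4e to 0.20 ± 0.50 for Nlrp2. The 95% interval of Nlrp4a, -1.01 to 0.99, reached about 2-fold in either direction. On the spike-in scale 4 of 9 were positive, and under TMM scaling all members were negative, at a median of -0.32. Ptprc and Lyz2, 2 of 8 leukocyte markers, were lower in KO at GVBD and Fshr, 1 of 10 granulosa cell markers, higher, all called with spike-in scaling and none with TMM scaling. The leukocyte markers summed to 16.96 to 18.25 CPM in KO GVBD against 46.14 to 59.64 in WT GVBD, and to 57.56 to 58.85 in KO GV against 17.49 to 39.62 in WT GV, and their part in the NLRP values was not tested.

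At MII the median was 0.127 against 0.298 over all 17566 genes, of which 0.803% were called. Nlrp14 had the largest value, 0.72 ± 0.58 (95% interval -0.42 to 1.86), with both KO libraries above both WT libraries in CPM but overlapping on the spike-in scale. Nlrp9a was at 0.41 ± 0.72 and Nlrp4c at -0.29 ± 0.85. All adjusted p-values were 1. Intervals were wide, as for Nlrp2 with -1.26 to 1.57, so a 2-fold difference was not detectable here. On the spike-in scale 6 of 9 members were positive, with TMM scaling 3 of 9.

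**Figure D3:**
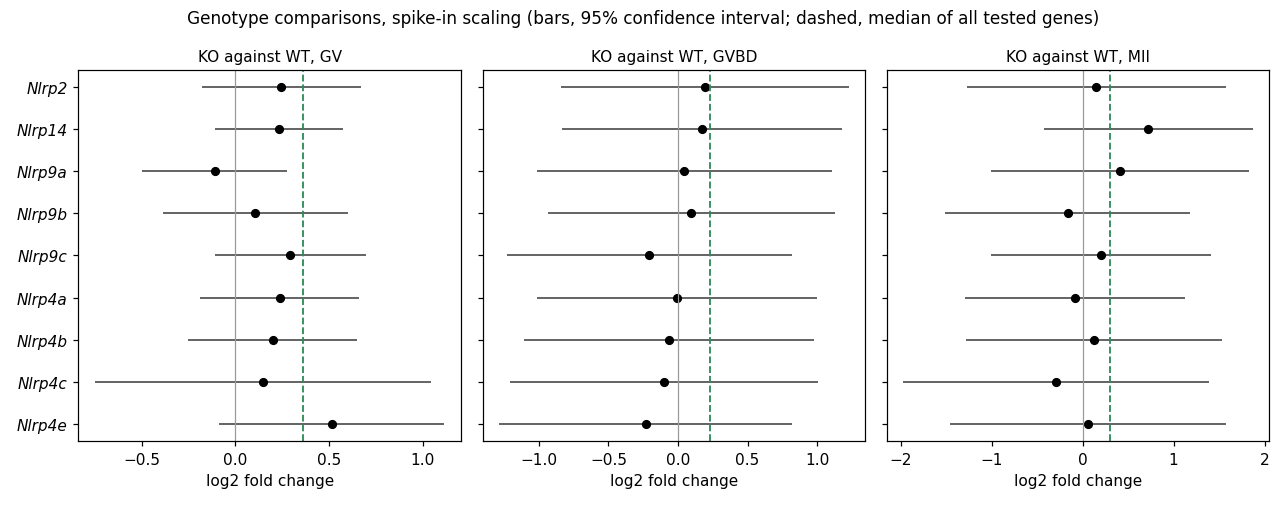
Log2 fold change of KO against WT for each NLRP gene at GV, GVBD and MII with spike-in scaling, with bars for the 95% confidence interval and a dashed line for the median of all tested genes (0.358, 0.231 and 0.298). Every interval includes 0, and the members lie mostly to the left of the dashed line; with TMM scaling 1, 0 and 3 of 9 members are positive.

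For the early step, GVBD against GV, no member passed in WT, where 0.0511% of genes were called, or in KO, where 0.22% were, with 0 members at an unadjusted p under 0.05 in either genotype and 0 of 9 by DESeq2. In WT the largest values were 0.40 ± 0.43 for Nlrp4c and 0.38 ± 0.36 for Nlrp4e, and the member median was 0.08 against 0.01 over all genes. In KO the values ran from -0.37 ± 0.29 for Nlrp4e to 0.16 ± 0.26 for Nlrp9a, with a median of -0.02 against -0.15 over all genes. Nlrp4e thus had values of opposite sign in the genotypes. That difference was not tested for this step. With TMM scaling 9 of 9 members were positive in WT and 6 of 9 in KO, against 8 and 4 on the spike-in scale.

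Between GV and MII the scaled counts of the median gene were lower, and all 9 NLRP transcripts lay above that median, though none passed the test. In WT 30.9% of 18816 genes were called, 74 higher and 5747 lower, with a median of -1.06, whereas 0 of 9 members were called by edgeR or by DESeq2 and their median was -0.19. Every member was above the median gene. Nlrp14 was the only one with an unadjusted p under 0.05, at -0.83 ± 0.42 (95% interval -1.64 to -0.01, adjusted p = 0.122). Nlrp2 had -0.63 ± 0.46, Nlrp9a -0.51 ± 0.46 and Nlrp4b -0.44 ± 0.46. At the other end Nlrp4e had 0.41 ± 0.48 (95% interval -0.52 to 1.34), Nlrp4c 0.11 ± 0.51 and Nlrp4a 0.10 ± 0.43.

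Relative to the rest of the library 3 members were called higher. On the spike-in scale the estimates of these 3 were also positive but were not called. Under TMM scaling, where the median gene was at -0.14 in WT, all 9 members were positive with a median of 0.70, and Nlrp4a (1.0 ± 0.19, adjusted p = 0.0145), Nlrp4c (1.03 ± 0.25, adjusted p = 0.0277) and Nlrp4e (1.34 ± 0.20, adjusted p = 0.00784) were called higher by the edgeR test, as were 8.47% of all genes (1593 higher and 3053 lower). Nlrp9b at 0.70 (adjusted p = 0.036) and Nlrp9c at 0.81 (adjusted p = 0.0211) passed the p threshold but not the 2-fold one. In CPM both MII libraries were above both GV libraries for 7 of 9 members in WT, against 27.2% of genes, and Nlrp2 and Nlrp14 were the exceptions. The mean CPM of Nlrp4e was 2.28 times that of GV, while its scaled count was 1.33 times. Nlrp4a was at the fold limit, and the calls for Nlrp4a and Nlrp4c were lost with TMM factors over all genes. With TMM scaling and 1 library left out, a group was reduced to a single library, so only effect sizes are given. Without replicate 1 or replicate 2 of WT MII, Nlrp4e was at 1.38 and 1.17. Nlrp4a was then at 0.92 and 0.95 and Nlrp4c at 0.90 and 0.99, below the fold limit. Without replicate 1 of WT GV, Nlrp4a was at 1.17 and Nlrp4e at 1.54. Without replicate 2 of WT GV, Nlrp4c was at 1.31 and Nlrp4e at 1.17.

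In KO oocytes 3.28% of 18777 genes were called, the median was -1.17 and the member median -0.32, and again all 9 were above the median gene and none was called (0 at an unadjusted p under 0.05, 0 of 9 by DESeq2). Also above it in KO were 7 of 7 genes of the subcortical maternal complex and its partners (median -0.282) and 8 of 10 oocyte markers (median -0.325). In WT these were 4 of 7 and 6 of 10. Member values in KO ran from -0.72 ± 0.60 for Nlrp2 to 0.00 ± 0.52 for Nlrp9a. TMM scaling made all 9 positive, with Nlrp9a at 1.18 ± 0.34 (adjusted p = 0.0837), Nlrp4e at 1.16 ± 0.33 (adjusted p = 0.0831) and none called. Without replicate 1 of KO MII, TMM scaling called Nlrp9a (1.47), Nlrp9c (1.31), Nlrp4a (1.14) and Nlrp4e (1.45) higher, as it did 12.8% of genes. Both KO MII libraries were above both KO GV libraries in CPM for 6 of 9 members, against 20.1% of genes.

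The spike-in calls changed when 1 MII library was left out. The MII arm was then a single library, assumed to vary like the GV libraries. Without replicate 1 of WT MII, Nlrp2 (-1.12, adjusted p = 0.0232) and Nlrp14 (-1.36, adjusted p = 0.0117) were called lower at MII than at GV by edgeR, as were 26.0% of all genes. Without replicate 1 of KO MII, Nlrp2 (-1.60, adjusted p = 7.23e-05), Nlrp14 (-1.03, adjusted p = 0.000761) and Nlrp9b (-1.12, adjusted p = 0.0018) were called lower by edgeR, as were 53.9% of all genes. These shares of members, 2 of 9 and 3 of 9, were not above those of all genes. Replicate 2, which stays in these fits, is the library with the lower endogenous to ERCC ratio in both genotypes, and the part of that ratio in the result was not tested.

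**Figure D4:**
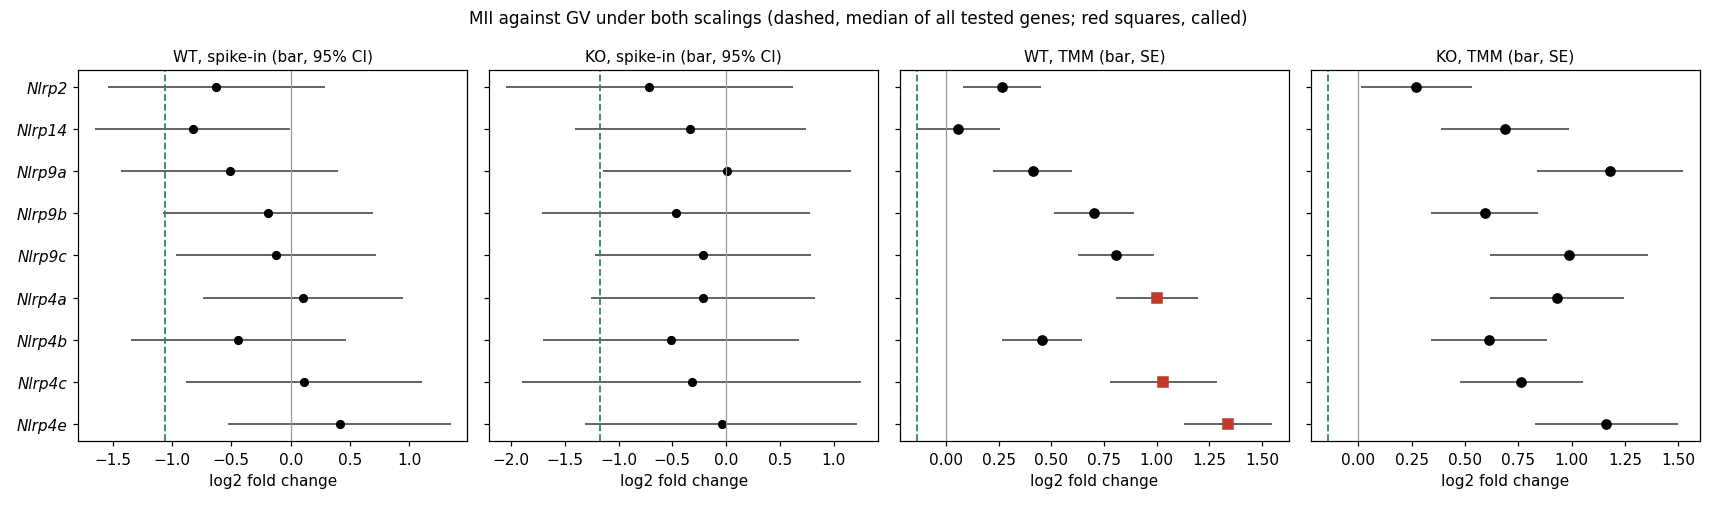
Log2 fold change of MII against GV for each NLRP gene in WT and KO, with spike-in scaling (left pair, bars for the 95% interval) and TMM scaling (right pair, bars for the SE), a dashed line for the median of all tested genes and red squares for called genes. All members lie to the right of the dashed line under both scalings, and the sign of most values flips between them (3 of 9 positive with spike-in scaling in WT, 9 of 9 with TMM).

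The late step was compared in the same way. In MII against GVBD 27.8% of genes were called in WT and 7.20% in KO, and 0 members in each, with 0 at an unadjusted p under 0.05 and 0 of 9 by DESeq2. The member median was -0.30 in WT against -1.11 over all genes, and -0.35 in KO against -0.88. Nlrp14 in WT had the lowest value, -0.91 ± 0.57, and Nlrp4e in KO the highest, 0.33 ± 0.71. With TMM scaling Nlrp4a was called higher in WT at 1.004 (adjusted p = 0.0216, edgeR), as were 1902 of 19211 genes. Without replicate 1 of KO MII, Nlrp2 was called lower in KO at -1.58 (adjusted p = 0.0446, edgeR), as were 32.4% of all genes, with the MII arm again a single library.

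Whether the GV to MII change differed between genotypes was tested as an interaction. In that test 0 of 20807 genes were called (0% by edgeR, 1197 with an unadjusted p under 0.05), and DESeq2 called 0 of 9 members. The estimates ran from -0.45 ± 0.63 for Nlrp4e (95% interval -1.83 to 0.92) to 0.52 ± 0.59 for Nlrp9a (95% interval -0.76 to 1.80), with Nlrp14 at 0.49 ± 0.65. With stage as a covariate, KO against WT over all 12 libraries called 1.26% of 22004 genes and no member (0 at an unadjusted p under 0.05, 0 of 9 by DESeq2). Nlrp14 had 0.38 ± 0.26 (95% interval -0.17 to 0.92), the widest shift, and Nlrp4c -0.08 ± 0.28. The member median was 0.10 against 0.29 over all genes, and 8 of 9 were positive on the spike-in scale but 1 of 9 with TMM scaling.

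Other genes of the family and its pathways were set beside the members. Among 10 further NLRP genes, those known from immune cells (Nlrp1a, Nlrp1b, Nlrp3, Nlrp6, Nlrp10 and Nlrp12) had 0 to 30 counts per library, below any member, and none of the 4 to 7 genes tested per comparison was called with spike-in scaling. None of the 7 genes of the subcortical maternal complex and its partners was called in KO against WT with spike-in scaling. With TMM scaling 1 gene of both lists, Nlrp4f, was called lower over all stages. In WT MII against GV 3 of the 7 were called lower with spike-in scaling, against 30.5% of all genes, and none of these with TMM scaling, which called Zbed3 higher. They were Khdc3 (-1.97 ± 0.48), a KH-domain subunit, Ooep (-1.79 ± 0.40), another subunit, and Padi6 (-1.15 ± 0.44), needed for the cytoplasmic lattices, while the member with the highest value was Zbed3 (0.43 ± 0.44). Of 12 inflammasome genes 7 were tested there, and Nek7 (-1.49 ± 0.56), a kinase that binds NLRP3, and Pycard (-4.55 ± 1.72), the adaptor ASC, were called lower with spike-in scaling only, a share near that of all genes. Nlrp4f, Padi6 and Nek7 were picked for mention after their values were seen. Pycard had at most 49 counts in any library. Nlrc4, whose protein senses bacterial ligands through NAIP proteins, was at 1072 to 2367 counts per library and was -0.19 ± 0.49 there.

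The members varied together in part. Over the 12 libraries, Pearson's r of the 36 pairs of members in log2 scaled counts was between 0.182 (Nlrp14 and Nlrp4e) and 0.950 (Nlrp2 and Nlrp4b), with a median of 0.679, and these libraries share the scaling and the MII decline. On TMM-scaled values it was between 0.328 and 0.961, with a median of 0.755 and the highest value for Nlrp9c and Nlrp4e. Pairs of other genes were not compared in this way on either scale. The genes most like the mean profile of the 9 members, of 10822 with a mean of at least 50 counts, were Zfp445 (r = 0.972), Efl1 (0.961), Gnpat (0.959), Col6a6 (0.951) and Huwe1 (0.951), against a median of 0.662 over all candidates. The nearest single genes were Csnk1d for Nlrp2 (0.986), Lrrc28 for Nlrp14 (0.985), Calr3 for Nlrp9a (0.950), Matr3 for Nlrp9b (0.978), Insig1 for Nlrp9c (0.934), Odr4 for Nlrp4a (0.951), Kcnma1 for Nlrp4b (0.973), Sbf1 for Nlrp4c (0.902) and Ccdc173 for Nlrp4e (0.871).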

How the data were processed

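Bulk RNA of small pools of oocytes was sequenced after SMART-seq amplification, with ERCC RNA added before reverse transcription. The authors trimmed the reads, aligned them with HISAT2 to GRCm38/mm10 plus the ERCC sequences, kept uniquely mapped reads and used StringTie, and deposited raw counts per gene. The submitters' processing notes name cutadapt 1.9, HISAT2 2.0.4 and StringTie 1.3.4d, while the annotation release, strand setting and counting step are not given in the sources used here. The labels also describe an extraction and library protocol unlike the SMART-seq one of the study's methods, which give 10 oocytes per tube where a legend gives 20.

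Of 56691 gene rows 52073 (91.9%) matched a symbol in GENCODE M21. Here counts were tested with edgeR 4.0.16 (R 4.3.3, limma 3.58.1, quasi-likelihood) after filterByExpr, with library sizes set in proportion to the sum of 92 ERCC sequences, on the 2 groups compared. A gene was called at a Benjamini-Hochberg adjusted p under 0.05 with an absolute log2 fold change of at least 1. The interaction and the fit over all stages used more groups. A scaled count is the count times the mean ERCC total over that of the library, and CPM is scaled to the endogenous counts of a library. Alternatives were TMM and median-of-ratios scaling, DESeq2 1.42.0, other filters, other ERCC sets, all 12 libraries in 1 model, summed copies, no fold minimum, the replicate number as a block, and each library left out in turn. Code was tested on simulated data. PCR reads carry no molecular identifiers, so counts are not independent molecules. With 2 samples a group, stated to be independent, p-values rest on the spread between samples. The edgeR test draws the variance of each gene toward a trend over all genes. Its p-values therefore do not measure the spread of a single gene alone.

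The 9 genes, the lists (further NLRP genes, subcortical maternal complex, inflammasome, and oocyte, granulosa cell and leukocyte markers) and the tests were chosen with earlier results of these data known. Named genes were the 9 members, the genes most like them by Pearson's r of log2(scaled count + 1) over 12 libraries (5 for the mean profile, 1 for each member, without Gm, Rik and other Nlrp names), list genes called in KO against WT, the 2 highest and 2 lowest of a list in a stage comparison, and Alkbh5. Transcripts (GENCODE M21) and promoters (RefSeq) were compared with Python 3.11.15 and Biopython 1.88.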

Additional observations from a re-analysis of the deposited data

Results flagged for a closer look

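For 3 members both KO libraries lay on one side of the WT mean at one time and on the other side at another. The rule was applied to the members only, and how often other genes meet it was not counted. For Nlrp9a the log2 difference of KO from WT was higher at MII than at GV by 0.537, and the interaction fitted for this pair of times gave 0.52 ± 0.59 with an adjusted p of 1 (edgeR, Benjamini-Hochberg). For Nlrp9c the difference at GVBD minus that at GV was -0.459, and at MII minus that at GVBD 0.395, and neither was tested. For Nlrp4e the difference at GVBD minus that at GV was -0.707, which was not tested either.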

How the results depend on the processing

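No member was called in KO against WT at any time, in GVBD against GV, in the interaction or over all stages under any setting run. In MII against GVBD in WT the number of members called went from 0 to 1 with TMM, which called 1902 of 19211 genes higher. With median-of-ratios scaling it was 2, with 2119 genes called higher. In MII against GV in WT it was 3 with TMM, which called 1593 of 18816 genes higher. It was also 3 with median-of-ratios scaling, with 1812 genes higher, and 1 with TMM factors over all genes, with 1329 higher. In MII against GV in WT and in both MII comparisons in KO, the calls also changed when a library was left out. Such a fit leaves 1 group with a single library. With TMM scaling and without replicate 1 of KO MII, the KO values of Nlrp9c (1.313), Nlrp4a (1.142) and Nlrp4e (1.452) were called with the opposite sign to that on the spike-in scale, where they were not called. TMM moved the median of all genes in MII against GV in WT from -1.06 to -0.138, the shift that its construction sets. The settings with TMM factors over all genes, TMM with a library left out and the crossed block were added after the data were seen.

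With the replicate number as a block, 0 members were called in every comparison. Over all genes the block changed the calls of KO against WT from 19 to 0 at GV, from 494 to 214 at GVBD and from 141 to 4 at MII, and those of MII against GV in KO from 616 to 2462. Deviations of same-numbered libraries correlated at -0.221, 0.137 and -0.183 at GV, GVBD and MII, and the labels do not say what a number marks. Endogenous counts per ERCC count were lower in replicate 2 in 6 of 6 groups. Crossed numbers gave 218 calls at GV, 0 at MII and 204 in MII against GVBD in KO. DESeq2 called 676 genes at GV, 901 at GVBD and 346 at MII, none of them a member.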

Other observations

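Nlrp4f (chr13:65177111-65205977, GRCm38), a subunit of the subcortical maternal complex picked here after its values were seen, was below WT in KO at each time in fitted value. Over all stages its log2 fold change was -0.79 ± 0.22 on the spike-in scale (adjusted p = 0.0855, edgeR) and -1.03 with TMM scaling (adjusted p = 0.00204, edgeR), so that it passed with TMM scaling only. At GV it was -0.67 ± 0.16 (adjusted p = 0.16, edgeR). None of the 9 members passed in either fit over all stages, and the difference between Nlrp4f and the members was not tested.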
